A study of Drosophila melanogaster with 9 samples.

Results

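The comparison covers indirect flight muscle of Drosophila melanogaster without its own actin against wild-type flight muscle. It uses the 3 arrays of the genotype Act88FKM88, an allele named for the flight muscle actin gene Act88F and described by the series as an actin null, and the 3 arrays of Canton-S, a wild-type laboratory strain. These are 6 of the 9 arrays of the series. The other 3 arrays come from Mhc7, described as a myosin null, and serve here only to show where the actin null differs from it. The sample labels name no shared strain background, so the allele and other differences between the stocks cannot be told apart. All flies were males, 1 to 2 days old, reared at 25 °C, and the muscles were dissected from bisected thoraces dehydrated in cold ethanol, so fibres, nerve, tracheae and adhering tissue could enter a sample. All 18769 probe sets of the Affymetrix Drosophila Genome 2.0 array other than the control probe sets were compared, of 18952 in the deposited table. They name 11982 genes, and values are log2 RMA values, the output of a method that corrects background, normalizes arrays and summarizes probes.

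Indirect flight muscle powers the wing beat of the fly and is built from long, stretch-activated myofibrils. In each sarcomere, thin filaments of actin with troponin and tropomyosin are anchored at the Z-disc, thick filaments of myosin are crosslinked at the M-line, and elastic connecting filaments tie the thick filaments to the Z-disc. Act88F supplies nearly all the actin of these fibres, whereas other actin genes serve other muscles, so that a null allele leaves flight muscle cells in place but without thin filaments.

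A probe set was called changed when its Benjamini-Hochberg adjusted p, from limma on all 9 arrays, was under 0.1 and its mean differed at least 2-fold. The verbs rose and fell are used for called genes only, and differences are Act88FKM88 minus Canton-S on the log2 scale with the standard error (3 arrays per genotype). In all, 340 probe sets were called (1.81% of those tested), 278 higher (1.48%) and 62 lower (0.33%) in Act88FKM88, and 2746 had an unadjusted p under 0.05. Counted by gene, with the brightest probe set standing for each gene, 282 genes were called (2.35%), of which 230 rose (1.92%) and 52 fell (0.434%). These are the background shares for the gene groups described here. Against Mhc7, 336 probe sets were called (1.79%), 142 higher (0.757%) and 194 lower (1.03%) in Act88FKM88, and 276 genes (2.3%), 113 higher (0.943%) and 163 lower (1.36%). Fewer cells of a type and less RNA per cell cannot be told apart in these bulk samples.

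The excess of rises depended on the level of the gene and on the scale of the arrays. Among genes with a mean log2 level under 4, the median difference was -0.03 and 0.239% were called. Among the 1432 genes at 6 or above the median was 0.34, with 125 rises and 24 falls (10.4% called). For groups of bright genes that share is the nearer background. Array medians lay between 3.05 and 3.12 in all 6 arrays, but the 95th percentile was 7.26, 7.35 and 7.47 in Canton-S against 7.70, 7.96 and 7.57 in Act88FKM88. When quantile normalization was repeated on the deposited values, 129 probe sets were higher and 124 lower. Differences near 1 for bright genes thus rest on the deposited scale, and calls that end on the repeated scale are said to do so. Hybridization spike-ins, RNAs of no fly gene added at fixed amounts, went the other way: the bacterial BioB control averaged 8.42, 7.64 and 8.64 in the Canton-S arrays and 7.44, 7.51 and 7.26 in the Act88FKM88 arrays. In the Mhc7 arrays it averaged 9.27, 9.62 and 9.48, above both. The part of this in the excess of rises and in the differences from Mhc7 was not tested. Canton-S 1 also stands apart, with the lowest 99th percentile (11.08 against 11.61 to 11.89 in the others), and without it 218 probe sets were called, 170 higher and 48 lower. Without Act88FKM88 2, 213 were higher and 95 lower.

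**Figure D1:**
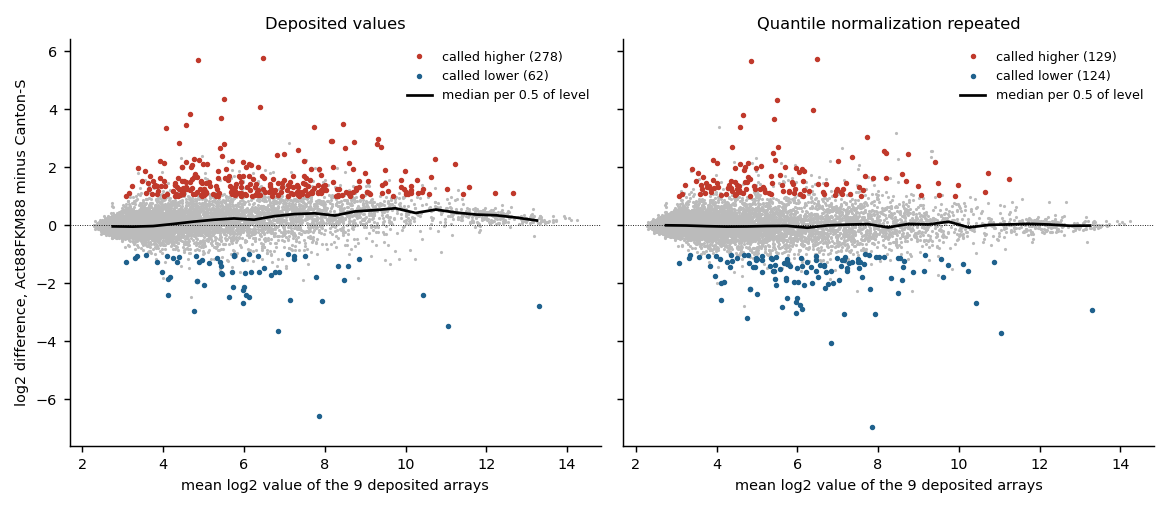
Difference between Act88FKM88 and Canton-S (y axis, log2) against the mean level of each probe set over the 9 arrays (x axis, log2), with deposited values on the left and quantile normalization repeated on the right; coloured points were called and the black line is the median per step of 0.5 in level. On the left the line lies above 0 for bright probe sets and 278 rises face 62 falls, and on the right it runs near 0 and 129 face 124.

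Act88F fell, and no other measured thin filament gene was called. The log2 level of Act88F was 14.10, 14.32 and 14.36 in Canton-S and 11.57, 11.79 and 11.03 in Act88FKM88, a fall of 2.80 ± 0.17 (6.94-fold lower, adjusted p = 8.25e-05). The groups lay far apart, yet Act88F stayed well above the median of the arrays in every null sample, and whether RNA of Act88F or of other actin genes gives this remaining signal was not tested. The position of the probes within the gene, and so whether the allele removes their target, was not checked. The Mhc7 arrays, at 14.10 to 14.25, lay with Canton-S.

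None of the 5 measured troponin and tropomyosin genes was called, and the spread was widest for TpnC41C, a troponin C gene of other muscles (1.06 ± 0.88, adjusted p = 0.650). TpnC4, the troponin C isoform of stretch-activated flight muscle, was at 12.85, 13.16 and 13.24 in Canton-S and 13.18, 13.28 and 13.19 in Act88FKM88 (0.14 ± 0.12, adjusted p = 0.674), and the ranges overlapped. The troponin T gene up differed by 0.14 ± 0.11 and the tropomyosin gene Tm2 by 0.33 ± 0.11 (adjusted p = 0.631 and 0.207). Among the 7 measured genes for filament ends and length none was called. The formin gene Fhos, whose product acts in thin filament growth, differed by 0.90 ± 0.17 with adjusted p = 0.026, just under the 2-fold limit, and was called without Canton-S 3. With quantile normalization repeated Fhos differed by 0.48. The pointed-end capping gene tmod was at 5.75, 7.69 and 7.82 in Canton-S against 9.14, 8.40 and 9.29 (1.86 ± 0.62, adjusted p = 0.188), with Canton-S 1 far below its group. DAAM, a formin of sarcomere assembly, differed by -0.72 ± 0.21 and the filament-lengthening gene sals by -0.05 ± 0.20, neither of them called. Of 6 genes that respond to or sense free actin through the cofactor Mrtf, none was called, and their differences ran from -0.10 to 0.29.

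Among 12 measured genes of thick and connecting filaments 1 fell and none rose. Obsc encodes obscurin, a giant protein of the M-line, and was at 11.98, 12.35 and 12.08 in Canton-S against 8.67, 9.15 and 8.19 in Act88FKM88. It fell by 3.47 ± 0.21 (adjusted p = 7.87e-05), a larger log2 fall than that of Act88F, and every null array lay more than 2 log2 units below every Canton-S array. A second, dim probe set of the gene differed by -0.64 ± 0.12, from a mean of 3.85 in Canton-S. In Mhc7 the first probe set averaged 12.33, and the difference between the nulls was -3.66 ± 0.21. The other 11 measured genes of the group were not called and had positive differences. They include fln (flightin, a thick filament protein of flight muscle) at 0.25 ± 0.11, the light chain genes Mlc1 and Mlc2 at 0.17 ± 0.11 and 0.28 ± 0.13, Prm (paramyosin) at 0.37 ± 0.14, and the connecting filament genes bt and sls at 0.41 ± 0.20 and 0.31 ± 0.27. The list median of 0.33 became 0.05 with quantile normalization repeated, so no direction is given for these genes.

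At the Z-disc 2 of 12 measured genes rose and none fell. Zasp66, a PDZ-domain protein of the Z-disc, was at 9.55, 10.10 and 9.91 in Canton-S and at 11.94, 11.97 and 11.97 in Act88FKM88, so the null arrays were nearly equal and lay above all controls (2.11 ± 0.13, adjusted p = 7.12e-05). Mlp60A, a muscle LIM protein, was at 9.97, 10.20 and 10.53 against 11.47, 11.49 and 11.44 (1.23 ± 0.17, adjusted p = 0.006), again with almost no spread among the null arrays. The call of Mlp60A ended with quantile normalization repeated (0.71), and that of Zasp66 was kept (1.59). The core Z-disc genes Zasp52 and Actn, the latter encoding alpha-actinin, were not called (0.33 ± 0.13 and 0.29 ± 0.13). Lmpt, a LIM-domain gene, was higher by 0.61 ± 0.10 with adjusted p = 0.011 but under 2-fold. With quantile normalization repeated its difference was 0.06. The filamin gene cher had the lowest value of the group (-0.64 ± 0.22, adjusted p = 0.195).

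Genes that hold the fibre to its tendon and matrix showed no call. This covered 14 integrin attachment genes (median 0.07), 14 basement membrane genes (median 0.18) and 14 dystrophin complex genes (median 0.01). The integrin beta chain gene mys was at 6.47, 6.60 and 6.48 in Canton-S and 6.81, 6.79 and 6.17 in Act88FKM88, where Act88FKM88 3 lay below all controls and the others lay above them. The lowest difference among the attachment genes was that of Tsp, a thrombospondin made at tendon cells (-0.63 ± 0.32, adjusted p = 0.412).

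**Figure D2:**
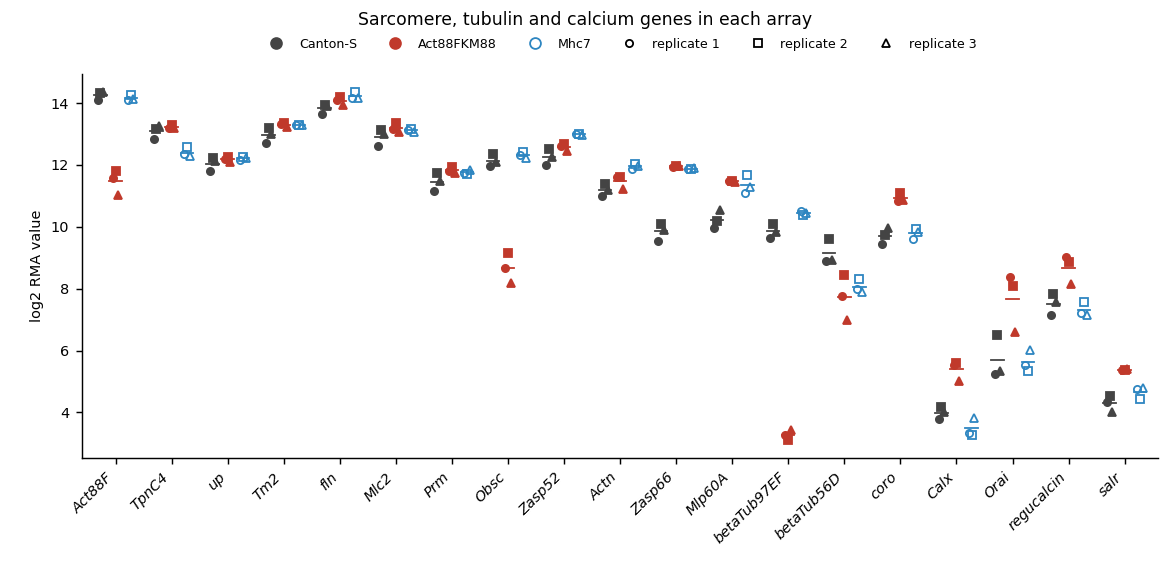
Log2 RMA value (y axis) of sarcomere, tubulin, calcium and fate genes in each array, with Canton-S in grey, Act88FKM88 in red and Mhc7 in open blue symbols; marker shape gives the replicate and the short bar the mean of 3 arrays. Act88F, Obsc, betaTub97EF and betaTub56D lie lower in Act88FKM88 and Zasp66, Mlp60A, coro, Calx, Orai, regucalcin and salr higher, while TpnC4, up, Tm2, fln, Mlc2, Prm, Zasp52 and Actn differ by 0.14 to 0.37.

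Microtubule genes gave the largest fall of the whole comparison. betaTub97EF, a beta-tubulin of restricted expression, was at 9.65, 10.08 and 9.83 in Canton-S and 3.28, 3.11 and 3.45 in Act88FKM88, a fall of 6.58 ± 0.13 (adjusted p = 2.64e-08). The null values lie near the array median of about 3.1, where background sets a floor. Mhc7, at a mean of 10.45, did not share the fall, and the nulls differed by -7.17 ± 0.13. The more general beta-tubulin gene betaTub56D fell by 1.42 ± 0.33 (8.88, 9.62 and 8.94 against 7.77, 8.43 and 6.996). That call ended without Act88FKM88 1 or without either of Canton-S 1 and Canton-S 2 (adjusted p as high as 0.174). Of 16 measured tubulin and tubulin-folding genes 1 rose, the microtubule-binding gene tau (1.34 ± 0.35, adjusted p = 0.084), a call that ended in 7 of the 9 fits that left out 1 array, all except those without Mhc7 1 or Mhc7 2 (adjusted p as high as 0.235), and with loess removal of the intensity trend.

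Actin turnover and folding gave 1 rise each. Among 23 measured actin dynamics genes 1 rose: coro, encoding coronin, an actin-binding protein of filament turnover, went from 9.44, 9.74 and 9.95 to 10.83, 11.11 and 10.87 (1.23 ± 0.15, adjusted p = 0.004), with no overlap. It also lay above Mhc7 by 1.14 ± 0.15. With quantile normalization repeated its difference was 0.65 and the call ended, and without Canton-S 3 a second gene of the list was called. The 8 subunits of the chaperonin CCT, which folds actin and tubulin, lay between -0.33 and 0.20, and none was called. Prefoldin hands unfolded actin and tubulin to CCT, and of its subunits Pfdn2 rose (6.87, 6.64 and 6.96 against 7.81, 8.32 and 7.71, or 1.13 ± 0.19, adjusted p = 0.014). Without Act88FKM88 2 it differed by 0.94, under the 2-fold limit, and on the repeated scale by 0.79. Against Mhc7 the prefoldin genes mgr, Pfdn1 and Pfdn6 were lower by 1.33 ± 0.27, 1.38 ± 0.31 and 1.12 ± 0.22. Each of these 3 calls ended without Act88FKM88 1, without Act88FKM88 3 or without Mhc7 3, and those of Pfdn1 and Pfdn6 also without Mhc7 2 (adjusted p as high as 0.212). That of Pfdn6 ended on the repeated scale too (-0.89).

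Of 19 measured calcium genes 3 rose and none fell. Calx, the sodium-calcium exchanger of the plasma membrane, went from 3.80, 4.18 and 4.02 in Canton-S to 5.55, 5.61 and 5.01 in Act88FKM88 (1.39 ± 0.20, adjusted p = 0.007), and each null array lay above each control. It lay above Mhc7 too (1.91 ± 0.20). Orai, the store-operated calcium entry channel, was at 5.23, 6.50 and 5.33 against 8.38, 8.07 and 6.59 (1.99 ± 0.48, adjusted p = 0.067), with Act88FKM88 3 only just above the highest control. The call of Orai ended without Act88FKM88 1, Act88FKM88 2, Canton-S 1 or Canton-S 3 (adjusted p as high as 0.226). For regucalcin, a calcium-binding protein, the difference was 1.16 ± 0.25 (7.14, 7.82 and 7.58 against 9.02, 8.87 and 8.15), a call that ended without Canton-S 1, Act88FKM88 1 or Act88FKM88 2 (adjusted p as high as 0.147), while its other, dim probe set differed by 0.06. The store pump SERCA (0.04 ± 0.22), the release channel RyR (0.14 ± 0.18) and the plasma membrane pump PMCA (0.21 ± 0.31), named after their values were seen, were not called, nor was any of 34 ion channel genes. The count of rises was 4 without Act88FKM88 3, and on the repeated scale 1, Calx (1.27). In addition, sra, a calcineurin regulator chosen after its values were seen, rose by 1.35 ± 0.16 (5.75, 5.94 and 6.10 against 7.21, 7.47 and 7.18).

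Regulators of fibre type were largely at background on these arrays: 10 of 14 lay under a log2 level of 4 in all 6 arrays. One of them rose, salr, a spalt-related transcription factor gene, from 4.33, 4.54 and 4.02 to 5.36, 5.37 and 5.40 (1.08 ± 0.14, adjusted p = 0.005). Its difference was 0.94, under 2-fold, both without Canton-S 3 and with quantile normalization repeated. The master gene of fibrillar flight muscle, salm, was at 7.14, 7.09 and 6.92 against 6.20, 7.43 and 6.40 (-0.37 ± 0.32, adjusted p = 0.664), with overlapping groups. The wing and flight muscle selector gene vg differed by 0.76 ± 0.19 (adjusted p = 0.077). None of 10 measured myoblast fusion and founder genes was called.

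The proteasome held the largest share of rises among the groups with 10 or more measured genes. It is the protease that destroys ubiquitin-tagged proteins, built from a core of alpha and beta rings and a regulatory cap of ATPase (Rpt) and non-ATPase (Rpn) subunits. In the core, 7 of 12 measured subunits rose and none fell (median 1.09), and in the cap 7 of 15 (median 1.01), against 1.92% of all genes. Among the 846 genes at a log2 level of 6 to 8, 76 rose and 70.7% had positive differences. All 27 subunits had positive differences, and for 22 of them the 2 genotypes did not overlap, against 11.7% of all genes not overlapping on the higher side. Prosbeta4 was at 5.74, 5.94 and 6.54 in Canton-S and 7.71, 7.77 and 8.62 in Act88FKM88 (1.96 ± 0.27, adjusted p = 0.006). The small cap subunit gene Sem1 was at 4.85, 4.89 and 4.96 against 6.24, 6.54 and 7.08 (1.72 ± 0.19, adjusted p = 0.003). The core gene Prosalpha6 rose by 1.61 ± 0.30 and the cap gene Rpn3 by 1.40 ± 0.25, and these 4 calls were kept in every fit that left out 1 array and on the repeated scale. On that scale the medians were 0.75 and 0.72.

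The subunits moved together from array to array within each genotype. All 12 core subunits were highest in Act88FKM88 3 among the null arrays and highest in Canton-S 3 among the controls, and the core medians were 6.61, 6.69 and 7.14 in Canton-S and 7.51, 7.56 and 8.36 in Act88FKM88. All 15 cap subunits were highest in Act88FKM88 3 and lowest in Act88FKM88 1, with medians of 6.00, 6.15 and 6.47 against 6.86, 7.03 and 7.78. The lowest null median thus lay above the highest control median in both lists. Counts of calls followed the arrays: without Act88FKM88 3, 4 core and 2 cap subunits rose, without Canton-S 1, 3 and 4, and without Canton-S 2, 3 and 3. Without Mhc7 1, 4 cap subunits rose, and on the repeated scale 2 core and 2 cap subunits. Against Mhc7 the medians were -0.79 in both lists, with 1 subunit called lower, Rpt4 (-1.04 ± 0.25). That call was kept only without Canton-S 3 or Act88FKM88 3 (adjusted p as high as 0.251) and ended on the repeated scale (-0.80). The 13 measured paralogues of proteasome subunits that are made in testis had a median of -0.06 and no call. Of these, 12 lay under a log2 level of 4 in all 6 arrays, near background, so they give no contrast with the other subunits.

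Of 16 proteasome assembly factors and partners 2 rose, Faf2 (1.06 ± 0.17) and Ufd1 (1.04 ± 0.21), both partners of the segregase p97. The p97 gene itself, TER94, went from 7.38, 7.30 and 7.45 to 7.84, 8.01 and 8.45 (0.73 ± 0.16, adjusted p = 0.042), higher in each array but under 2-fold. On the repeated scale TER94 differed from Canton-S by 0.35. Against Mhc7 its difference was -1.27 ± 0.16, and -0.96 and not called on the repeated scale. The call of Ufd1 ended without Act88FKM88 3 or without either of Canton-S 1 and Canton-S 2 (adjusted p as high as 0.138), and that of Faf2 without Act88FKM88 2 (0.95). On the repeated scale Faf2 stood at 0.80 and Ufd1 at 0.91, both not called. Of 28 ubiquitin and ligase genes 2 rose. The polyubiquitin gene Ubi-p5E was at 9.44, 10.13 and 9.39 against 11.13, 11.13 and 10.80 (1.36 ± 0.20, adjusted p = 0.009) and lay 1.32 ± 0.20 above Mhc7. The conjugating enzyme gene Ubc6 rose by 1.01 ± 0.19, and it was not called without Canton-S 1, Act88FKM88 1 or Act88FKM88 3 (down to 0.88). On the repeated scale Ubi-p5E stood at 0.77 and Ubc6 at 0.63, both not called.

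Autophagy gave 1 rise and 1 fall among 28 measured genes, with 2 rises without Canton-S 3 or Act88FKM88 2. Atg8a, whose protein coats autophagosomes, went from 8.58, 9.23 and 9.48 to 10.22, 10.15 and 10.41 (1.16 ± 0.21, adjusted p = 0.020), and without Canton-S 1 the difference was 0.91 and not called. On the repeated scale it was 0.68. Snap29, a SNARE needed for autophagosomes to fuse with lysosomes, went from 6.77, 7.16 and 7.16 to 4.45, 5.31 and 4.95, a fall of 2.13 ± 0.20 (adjusted p = 0.001) that was kept without any single array and on the repeated scale. Mhc7, at 5.27 on average, was low as well. The vacuolar proton pump, which acidifies lysosomes, had 3 of 18 measured subunits that rose and a median of 0.54. Vha26 was at 9.63, 10.10 and 9.57 against 10.99, 11.14 and 10.59 (1.14 ± 0.17), Vha36-1 rose by 1.08 ± 0.16 and Vha14-1 by 1.06 ± 0.13. Pump subunits peaked together too: 14 of 18 were highest in Act88FKM88 2 and 16 lowest in Act88FKM88 3. Without Act88FKM88 2, 1 pump subunit rose, Vha26, and without Act88FKM88 3, 5 rose. Vha14-1 was also not called without Canton-S 1 (0.98). On the repeated scale none was called (median 0.30). None of 15 lysosomal enzyme genes and none of 13 calpain and caspase genes was called.

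**Figure D3:**
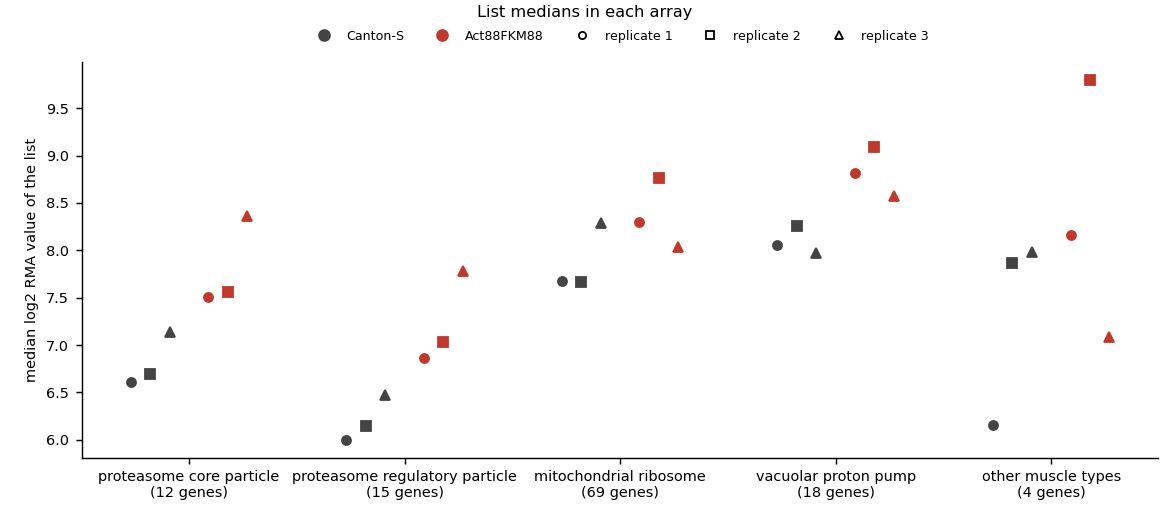
Median log2 RMA value of 5 gene lists (y axis) in each array, with Canton-S in grey, Act88FKM88 in red and marker shape for the replicate; there are no error bars because each point is 1 array. Proteasome and proton pump medians do not overlap between genotypes, those of the mitochondrial ribosome and of genes of other muscle types do, and the highest null array is Act88FKM88 3 for the proteasome and Act88FKM88 2 for the other lists.

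Chaperones showed few changes. Of 18 measured cytosolic chaperones 2 rose, and 3 without Act88FKM88 3. The BAG-family co-chaperone gene stv, which acts in chaperone-assisted autophagy of muscle proteins, was at 7.51, 7.73 and 7.80 against 9.56, 9.04 and 8.15 (1.24 ± 0.32, adjusted p = 0.081), so Act88FKM88 3 lay close to the controls. Its call was kept only in the fits without Act88FKM88 3 or Mhc7 2 (adjusted p as high as 0.248 in the others). DnaJ-H, a co-chaperone of Hsp70, rose by 1.08 ± 0.25, and was not called without any one of Act88FKM88 2, Act88FKM88 3, Canton-S 1 and Canton-S 2 (adjusted p as high as 0.170). Neither was called on the repeated scale (0.79 and 0.88). The constitutive Hsp70 gene Hsc70-4 was not called (-0.16 ± 0.20) and lay 1.54 ± 0.20 below Mhc7. In mitochondria, Trap1, the Hsp90 of the matrix, was at 7.21, 6.89 and 7.21 in Canton-S and 5.43, 5.64 and 5.39 in Act88FKM88, a fall of 1.61 ± 0.20 (adjusted p = 0.004) with no overlap. It lay 2.56 ± 0.20 below Mhc7, and both calls were kept without any single array and on the repeated scale. None of the other 19 measured mitochondrial chaperones and proteases was called against Canton-S, and 3 of them were called lower than in Mhc7.

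Mitochondrial ribosomal protein genes, which serve translation of the mitochondrial genome, rose in 7 of 69 cases and fell in none (median 0.43). The share called, 10.1%, was near that of all genes at a log2 level of 6 to 8 (11.0%) or 8 to 10 (10.7%). The largest rise was that of mRpL33, from 9.04, 8.87 and 9.64 to 10.69, 10.99 and 10.53 (1.56 ± 0.21, adjusted p = 0.006), kept without any single array but not on the repeated scale (0.97). The list followed single arrays closely. All 69 genes were highest in Act88FKM88 2, 66 were lowest in Act88FKM88 3 and 68 were highest in Canton-S 3, and the list medians of 8.30, 8.76 and 8.04 in Act88FKM88 overlapped those of 7.68, 7.67 and 8.29 in Canton-S. Without Act88FKM88 2, 1 gene rose and 3 fell. Without Canton-S 1, 2 rose, without Canton-S 2 or Act88FKM88 1, 3 rose, and without Act88FKM88 3, 12 rose. On the repeated scale none rose, 3 fell and the median was -0.00. Against Mhc7 the list was lower (median -0.996), with 29 genes called lower and none higher, against 1.36% of all genes called lower and 0.943% higher in that contrast. The count of 29 was not recomputed without single arrays or on the repeated scale, nor was a share for genes of like level in that contrast. Examples are mRpL21 at -2.50 ± 0.32 and mRpS2 at -1.97 ± 0.31. mRF1, a mitochondrial release factor gene, was at 4.31, 3.38 and 4.62 in Canton-S and 4.02, 4.55 and 4.20 in Act88FKM88 and averaged 7.21 in Mhc7 (-2.95 ± 0.34 between the nulls).

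Few genes of energy metabolism were called. No gene was called among 32 of respiratory complex I (median 0.16), 16 of ATP synthase (0.17) and 15 of the citric acid cycle (0.22). Without Canton-S 1 the medians were -0.04 for complex I and -0.01 for ATP synthase. Of 32 genes of complexes II to IV and cytochrome c 1 rose, the complex III gene UQCR-11 (4.23, 3.70 and 3.77 against 4.78, 5.38 and 5.17, or 1.21 ± 0.22). The assembly factor genes Scox (1.23 ± 0.18), Cox11 (1.21 ± 0.26) and Cox17 (1.07 ± 0.16), which bring copper to complex IV, rose as well and were chosen after their values were seen. The call of Cox11 ended without Act88FKM88 2 or without either of Canton-S 1 and Canton-S 2 (adjusted p as high as 0.143) and that of Cox17 without Canton-S 1 (0.88), and on the repeated scale none of the 3 was called (0.81, 0.97 and 0.49). Of 18 measured mitochondrial import genes 2 rose, Tim9a (1.64 ± 0.44) and CG32267 (1.71 ± 0.43). Both calls ended without Canton-S 1, Canton-S 2, Act88FKM88 1, Act88FKM88 2 or Mhc7 3, and that of Tim9a also without Mhc7 2 (adjusted p as high as 0.268) and with loess removal of the trend.

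Among 21 glycolysis, glycogen and trehalose genes 2 rose. Argk1, arginine kinase, which keeps the phosphagen buffer of ATP in insect muscle, went from 11.78, 12.05 and 12.26 to 13.14, 13.25 and 13.01 (1.10 ± 0.14, adjusted p = 0.005), with no overlap between the genotypes. Without Canton-S 1 it stood at 0.98, and on the repeated scale at 0.80, both under 2-fold. UGP, which makes the sugar donor for glycogen, rose by 1.45 ± 0.26 from values near background (2.92, 3.11 and 3.01 against 4.02, 5.19 and 4.18). The glycolytic genes Gapdh1 (0.15 ± 0.12) and Pfk (0.12 ± 0.12), named after their values were seen, were not called. No call was made among 17 amino acid and proline metabolism genes (median 0.11). Outside the lists, ppl, a glycine cleavage enzyme gene, fell by 1.77 ± 0.24 (7.65, 7.66 and 8.21 against 5.94, 6.27 and 6.00) and the acetyl-CoA acetyltransferase gene Acat2 by 1.62 ± 0.16, both chosen after their values were seen. Both lay further below Mhc7, by 3.39 ± 0.24 and 2.49 ± 0.16.

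Cytosolic translation genes showed no call among 41 ribosomal protein genes (median 0.42), 46 translation factors (median 0.20) and 32 aminoacyl-tRNA synthetases (median 0.04). For 27 of the 41 ribosomal protein genes the null arrays lay above all controls, against 11.7% of all genes. Most of all genes at a log2 level of 8 to 10 also had positive differences (82.2%). Among the controls, 34 of the 41 ribosomal protein genes were lowest in Canton-S 1. Their median was 0.19 without Canton-S 1 and 0.08 on the repeated scale. Polr1E, a subunit of RNA polymerase I, which transcribes ribosomal RNA, rose alone among 20 genes of that machinery and of ribosome biogenesis. It went from 3.59, 3.13 and 3.28 to 7.38, 7.09 and 7.03, 3.83 ± 0.13 higher (adjusted p = 1.45e-06). Mhc7, at 3.49, lay with Canton-S, so the nulls differed by 3.68 ± 0.13. The other 19 genes lay between -0.26 and 0.66, but 14 of them were under a log2 level of 4 in all 6 arrays, near background.

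**Figure D4:**
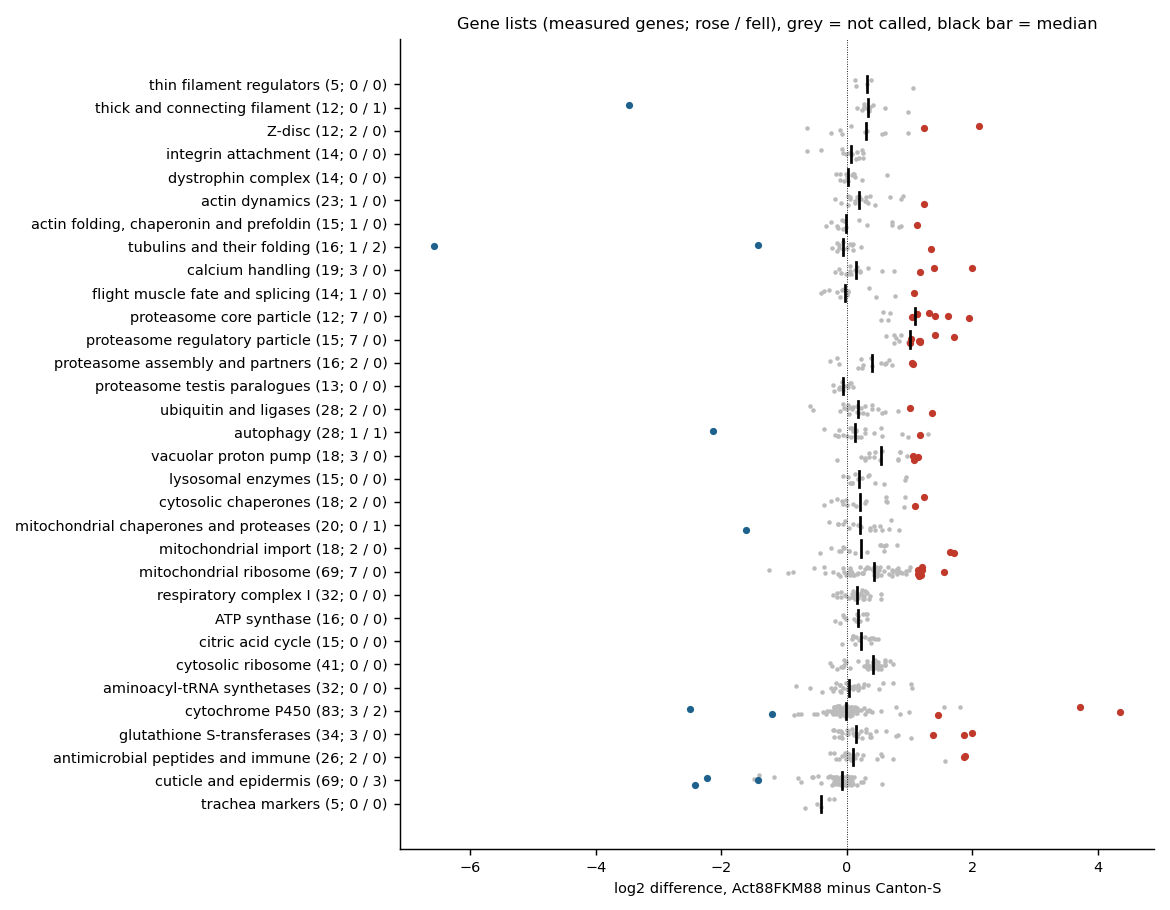
Log2 difference between Act88FKM88 and Canton-S (x axis) for each measured gene of 32 lists (rows), with called rises in red, called falls in blue, other genes in grey and the list median as a black bar; the numbers after a name are measured genes and called rises and falls. Both proteasome lists have their medians near 1, the mitochondrial ribosome shows 7 rises in a wide spread, and single far points are betaTub97EF, Obsc, Cyp4e3 and Cyp6a20.

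Detoxification genes changed singly. Cytochrome P450 enzymes oxidize steroids, fatty acids and foreign compounds, and of 83 measured genes 3 rose and 2 fell (median -0.01). Cyp4e3 went from 3.46, 3.63 and 3.87 to 8.10, 8.44 and 7.50 (4.36 ± 0.45, adjusted p = 0.002) and Cyp6a20 from 2.97, 2.97 and 3.17 to 6.87, 7.01 and 6.37 (3.71 ± 0.28). Both started near background, where a difference can be understated. Cyp6a20 was as high in Mhc7 (6.47), whereas Cyp4e3 averaged 4.82 there and lay 3.19 ± 0.45 higher in Act88FKM88. Cyp28d1 rose by 1.45 ± 0.17 and lay 2.59 ± 0.17 above Mhc7. Cyp4e1, from 6.78, 7.10 and 6.63 to 4.03, 4.85 and 4.15, fell by 2.49 ± 0.24, and Cyp18a1, an ecdysone-inactivating enzyme, fell by 1.19 ± 0.22, a call that ended without Act88FKM88 1 (-0.96).

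Of 34 glutathione S-transferase genes, whose products couple glutathione to reactive compounds, 3 rose and none fell. GstE1 was at 3.48, 3.53 and 4.28 against 5.20, 5.42 and 6.68 (2.00 ± 0.37, adjusted p = 0.022), GstD1 at 8.02, 8.07 and 8.71 against 10.11, 9.43 and 10.87 (1.87 ± 0.32, adjusted p = 0.017), and GstE6 rose by 1.37 ± 0.23. All 3 calls were kept without any single array and on the repeated scale. Against Mhc7, GstE1 lay 1.91 ± 0.37 above Mhc7 and GstD1, at 11.57 on average in Mhc7, 1.43 ± 0.32 below it. The first of these contrasts was not called without Mhc7 2 or Mhc7 3, and the second without Act88FKM88 1 or any Mhc7 array (adjusted p as high as 0.197). Among 22 antioxidant enzymes 2 rose, and 3 without Canton-S 3 or Act88FKM88 2. SelR, which repairs oxidized methionine, went from 9.57, 10.15 and 10.03 to 11.23, 11.22 and 11.05 (1.25 ± 0.16), and Prx6c, a peroxiredoxin, from 6.99, 7.38 and 8.51 to 10.23, 9.22 and 11.81 (2.79 ± 0.64). The Prx6c call ended without Act88FKM88 1 or without either of Canton-S 1 and Canton-S 2 (adjusted p as high as 0.198), and on the repeated scale neither was called (0.63 and 2.36), while 1 other gene of the list fell.

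Immune genes changed in small number. Of 26 measured genes 2 rose, the Drosomycin-like peptide genes Drsl5 (4.55, 4.36 and 5.46 against 6.61, 6.68 and 6.73, or 1.88 ± 0.26) and Drsl3 (2.91, 2.86 and 2.96 against 5.02, 5.10 and 4.21, or 1.87 ± 0.21). In Mhc7 they averaged 4.62 and 2.92, and the nulls differed by 2.05 ± 0.26 and 1.86 ± 0.21. These calls were kept without any single array and on the repeated scale. BomBc2, a Bomanin peptide gene among the 15 largest rises, went from 3.81, 3.60 and 5.64 to 6.84, 6.89 and 7.75 (2.81 ± 0.63), and its call ended when any array of either genotype other than Canton-S 3 was left out (adjusted p as high as 0.185). Myd88, the Toll pathway adaptor, chosen after its values were seen, rose by 1.60 ± 0.16, from 3.91, 3.79 and 3.56 to 5.03, 5.56 and 5.46.

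In stress signalling, kay, the fly Fos gene and a target and effector of the kinase JNK, went from 6.52, 6.99 and 6.72 to 7.97, 8.33 and 8.08 (1.38 ± 0.14, adjusted p = 0.002), without overlap, while a second kay probe set at background differed by 0.00. It lay 1.09 ± 0.14 above Mhc7, a contrast that missed 2-fold without Act88FKM88 2 (0.99). NLaz, a lipocalin that restrains insulin signalling, went from 4.04, 7.44 and 8.01 to 9.93, 9.38 and 10.67 (3.50 ± 0.89, adjusted p = 0.081). Canton-S 1 alone lay more than 3 below the other controls, and without it the call was kept, while it ended on the repeated scale (3.17) and without Canton-S 2, any Act88FKM88 array, Mhc7 1 or Mhc7 3 (adjusted p as high as 0.199). These were the 2 rises among 15 JNK pathway genes. Arc1, a capsid-like protein gene with roles in metabolism, went from 6.64, 6.32 and 7.37 to 10.11, 8.53 and 10.39 (2.90 ± 0.44, adjusted p = 0.010). The endoplasmic reticulum stress kinase PEK rose by 1.70 ± 0.44, the single call among 17 genes of that response. It ended without Mhc7 1, any of the Act88FKM88 arrays, Canton-S 1 or Canton-S 3 (adjusted p as high as 0.255) and on the repeated scale (1.54).

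Growth factor pathways showed 1 call each way. Dad, the inhibitory Smad that BMP signalling switches on, rose from 3.16, 3.47 and 3.69 to 4.80, 5.26 and 4.33 (1.36 ± 0.22, adjusted p = 0.012), alone among 18 TGF-beta, activin and BMP genes. It was 1.22 ± 0.22 above Mhc7, under 2-fold without Act88FKM88 2 (0.99). Hipk, a nuclear kinase that promotes Notch, Wnt and Hippo pathway output, went from 7.02, 7.14 and 6.64 to 4.49, 4.50 and 3.74, a fall of 2.69 ± 0.27 (adjusted p = 0.001), while Mhc7 averaged 6.74. None of 17 insulin and TOR genes was called. Of 10 nuclear envelope genes 2 rose, klar (1.37 ± 0.28), which links nuclei to microtubule motors, and bocks (1.18 ± 0.25). Neither was called without Canton-S 1, klar also not without Act88FKM88 1 and bocks not without Act88FKM88 3 (adjusted p as high as 0.141).

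Among the other large changes, CG8768 rose most, from 3.73, 3.22 and 3.31 to 9.29, 9.45 and 8.86 (5.78 ± 0.36, adjusted p = 8.26e-05), with Mhc7 in between at a mean of 6.82. CG7272 had very little spread, 6.24, 6.37 and 6.50 against 9.71, 9.698 and 9.92 (3.40 ± 0.10), and lay 2.74 ± 0.10 above Mhc7. CG34324 (3.47 ± 0.47) and CG30197 (2.90 ± 0.29) were also higher than in Mhc7, by 3.83 ± 0.47 and 1.83 ± 0.29. kar, a monocarboxylate transporter family gene, rose by 2.87 ± 0.45. Mal-B1, a maltase gene, was at 6.24, 6.65 and 8.60 against 9.34, 10.08 and 10.09 (2.67 ± 0.68), a call that was kept in only 2 of the 9 fits that left out 1 array, those without Canton-S 3 or Mhc7 2 (adjusted p as high as 0.263), and that ended on the repeated scale (2.29). Its relatives went the other way: Mal-B2 fell by 1.47 ± 0.21 and Mal-A5 by 1.05 ± 0.11, both chosen after their values were seen, the latter -0.94 without Canton-S 2. CG14645 was at 3.03, 2.93 and 2.79 against 5.58, 4.48 and 8.73 (3.35 ± 0.85), so that Act88FKM88 3 lay more than 3 above the next array. Its call was kept only without Act88FKM88 2 or Act88FKM88 3 (adjusted p as high as 0.207 in the other fits) and ended on the repeated scale (3.38).

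Falls outside the groups included CG8788, from 7.66, 9.03 and 8.27 to 4.93, 5.11 and 3.999 (-3.64 ± 0.38), CG5644 (-2.60 ± 0.30) and CG42323 (-2.58 ± 0.44, and -1.05 ± 0.22 in its second probe set). Ctr9, a subunit of the Paf1 complex of transcription elongation, went from 6.80, 7.08 and 7.04 to 4.68, 4.57 and 4.47 (-2.40 ± 0.10), while Mhc7 averaged 6.62. gkt, a tyrosyl-DNA phosphodiesterase gene of DNA repair, fell by 2.42 ± 0.13, and its other probe sets, at background, differed by -1.29 and -0.05. CG13920 fell by 2.07 ± 0.37 and CG2162 by 2.12 ± 0.53. The call of CG2162 ended without Canton-S 1, Canton-S 3, Act88FKM88 1, Act88FKM88 3, Mhc7 1 or Mhc7 3 (adjusted p as high as 0.232).

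**Figure D5:**
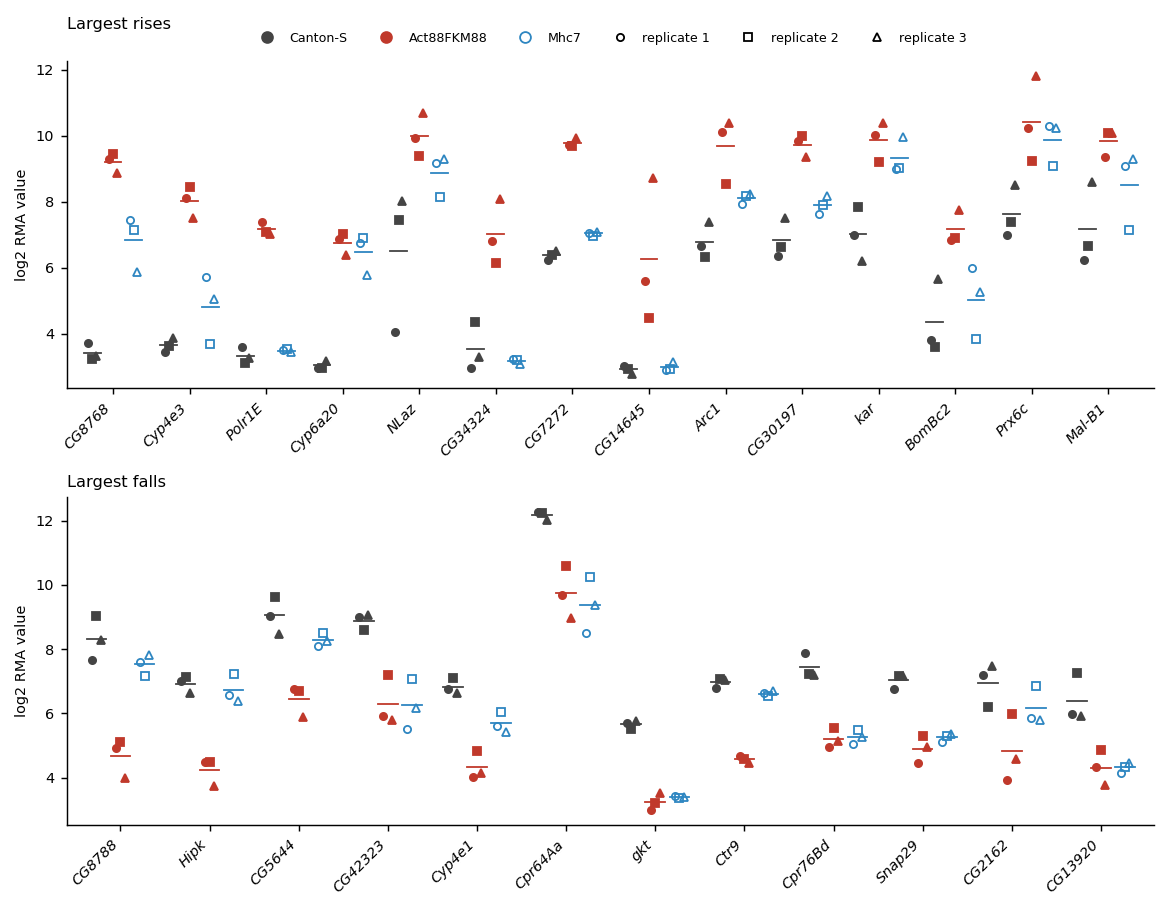
Log2 RMA value (y axis) in each array for the genes with the largest rises (top) and falls (bottom) in Act88FKM88 against Canton-S, without those in the plot of sarcomere, tubulin and calcium genes; colours give the genotype, marker shape the replicate and short bars the mean of 3 arrays. Polr1E, CG34324, CG14645, CG8788, Hipk, CG5644 and Ctr9 have Mhc7 near Canton-S, whereas for Cyp6a20, CG42323, Cpr64Aa, gkt, Cpr76Bd, Snap29 and CG13920 it lies with Act88FKM88.

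Markers of other tissues were compared across the arrays, since dissected muscle can carry neighbours. Genes of jump muscle and other tubular muscles, Act79B, TpnC41C, Act87E and TpnC73F, had no call but large spread. Act79B was at 9.31, 11.62 and 12.17 in Canton-S and 11.78, 13.35 and 10.87 in Act88FKM88 (0.96 ± 0.82, adjusted p = 0.664), and TpnC41C at 6.76, 8.97 and 10.03 against 9.20, 11.24 and 8.52 (1.06 ± 0.88). All 4 genes were highest in Act88FKM88 2, lowest in Act88FKM88 3 and lowest in Canton-S 1, and the summed level of the list ran from 9.65 to 12.49 in Canton-S and from 11.16 to 13.69 in Act88FKM88 (log2). Mitochondrial ribosome and proton pump genes shared the high place of Act88FKM88 2. All 10 flight muscle markers and all 12 thick and connecting filament genes were highest there too. In the controls, 48 of 69 mitochondrial ribosome genes were lowest in Canton-S 2 and 10 of 18 pump genes in Canton-S 1. The part of cells of other muscles in those rises was not tested. The flight muscle markers other than Act88F had no call (summed level of the list with Act88F 15.69 to 15.99 in Canton-S and 15.51 to 15.80 in Act88FKM88).

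Fat body markers had 1 rise among 8, the fatty acid synthase gene FASN1 (1.07 ± 0.27), whose call ended without Mhc7 3, any of the Act88FKM88 arrays, Canton-S 1 or Canton-S 2 (adjusted p as high as 0.260) and on the repeated scale (0.99), with summed levels from 9.05 to 9.93 and from 9.21 to 10.17. Hemocyte, gut, neuron and glia, trachea, testis, and head and eye markers had no call. Summed levels ran from 6.44 to 6.65 in Canton-S and 6.51 to 6.93 in Act88FKM88 for 7 hemocyte markers, and from 5.86 to 5.95 and 5.85 to 5.99 for 6 gut markers. They were 8.98 to 9.89 against 10.04 to 10.49 for 8 neuron and glia markers, where the null arrays lay above all controls. The glutamine synthetase gene Gs2, which glia and many other cells express, held most of that sum (8.76, 9.76 and 8.76 against 9.97, 10.27 and 9.94, or 0.97 ± 0.25). Of the 8 neuron and glia differences 7 were above 0, and the highest, that of a dimmer gene than Gs2, was 1.54 and not called. For 5 trachea markers the summed levels were 9.15 to 9.90 against 8.32 to 9.85, and all 5 differences were below 0 (-0.67 to -0.20). For 7 testis markers they were 6.40 to 7.78 against 7.16 to 7.96, and for 4 head and eye markers, all near background, 4.88 to 5.06 against 4.87 to 5.01. The part of these cells in the changes was not tested. The pan-neuronal marker elav lay at 3.36 to 3.70 in all 6 arrays and the hemocyte marker He at 2.62 to 2.98, at background, and the hemocyte marker Hml at 4.43 to 5.49. Among 69 cuticle and epidermis genes 3 fell and none rose. Cpr64Aa was at 12.26, 12.23 and 12.02 against 9.67, 10.60 and 8.98 (-2.42 ± 0.46, and not called without Canton-S 1, adjusted p = 0.103), Cpr76Bd fell by 2.22 ± 0.22 and Cpr66D by 1.42 ± 0.24. Cpr64Aa and Cpr76Bd were as low in Mhc7 (9.37 and 5.27), whereas Cpr66D averaged 6.83 there. Without Canton-S 2, 5 cuticle genes fell. Summed cuticle levels ran from 13.22 to 14.01 in Canton-S and from 12.10 to 13.13 in Act88FKM88, and the part of adhering epidermis in these falls was not tested.

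Called genes were spread over the chromosomes. Shares called ran from 2.03% on X to 2.65% on 3L among the large arms. On the small chromosome 4 the share was higher, 4 of 65 genes (6.15%). Around Act88F on arm 3R, none of the 50 nearest genes was called, 25 on each side, and 3 of the 100 nearest rose (CG14864, l(3)neo43 and glob1, named for their position after their values were seen). None of these 3 was called on the repeated scale, and CG14864 was not called without Act88FKM88 2 nor glob1 without Canton-S 1 or Act88FKM88 1. Of 280 called genes with a place in the order of genes, 16 (5.71%) had a neighbour called in the same direction. The matching share over all genes was not computed, so nothing about clustering is read from this count.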

How the data were processed

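The authors deposited 1 log2 value per probe set and array, made by RMA per the submitters' processing notes; its version and the grouping of arrays in its normalization are not given in the sources used here. There is no depth for arrays; with 3 per genotype, it is their number that sets the precision. The labels call the 3 arrays per genotype biological replicates. All 9 arrays entered a limma fit (version 3.58.1, R 4.3.3) with 1 coefficient for each genotype (moderated variance, two-sided, Benjamini-Hochberg over 18769 probe sets), and probe sets were called at adjusted p under 0.1 and 2-fold, the false discovery rate and fold stated in the series' design text. No filter on level was used, and 183 control probe sets were left out. The platform annotation names 1 gene for 13647 probe sets, several for 402 and none for 4720, and 13544 matched RefSeq by gene ID. The brightest probe set stands for a gene.

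The genes named were drawn from a set fixed by rule: Act88F, the 15 largest rises and 15 largest falls without overlap, every measured member of lists with up to 16 measured genes, and in longer lists up to 4 called members per direction and contrast, or, with no call, the 2 of lowest p. Members not named are given by counts and medians, and genes from outside this set are marked. The members and the 67 gene lists were chosen with earlier results of these data known, and pes was taken out of the ribosome biogenesis list after its values were seen. The fit was tested on simulated data with changes put into brighter probe sets. It called 42% of those raised 2-fold, 88% of those raised 3-fold and 40% of those at a fold of 0.5. A call needs an estimate of at least 2-fold, so true changes of exactly that size are often missed through the limit itself. The simulated noise was independent between probe sets, whereas genes of some lists moved together on these arrays. A missing call therefore does not show that a gene was unchanged. Alternatives were a filter on dim probe sets, 6 arrays alone, quantile normalization repeated, loess removal of the intensity trend, array weights, a variance prior by intensity, a replicate block, gene means, a stricter threshold, SAM, and leaving out each array. A form of SAM that applies 2-fold after the false discovery rate was chosen after seeing the data.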

Additional observations from a re-analysis of the deposited data

How the results depend on the processing

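The fall of Act88F was called in every limma setting and ranged from -2.96 to -2.58 when 1 array was left out. When 1 array was left out, the count of 340 probe sets called between Act88FKM88 and Canton-S ranged from 218 (without Canton-S 1) to 390 (without Canton-S 3), rises from 170 (without Canton-S 1) to 341 (without Act88FKM88 3) and falls from 43 (without Act88FKM88 1) to 95 (without Act88FKM88 2). Quantile normalization repeated gave 129 rises and 124 falls, with 190 of the 340 shared, and loess removal of the intensity trend gave 131 and 101, with 193 shared. SAM gave 455 calls (359 rises and 96 falls), and 176 (150 and 26) with 2-fold applied after the false discovery rate, a form chosen after seeing the data. Against Mhc7, 336 probe sets were called, 142 higher and 194 lower. Leaving out 1 array gave 192 to 400 calls, 91 to 172 higher and 101 to 276 lower; SAM gave 218 higher. The excess of lower over higher calls turned with loess (165 and 163) and without Act88FKM88 3 (172 and 163). A replicate block gave 345 calls (280 and 65), 317 of them shared. Equal replicate numbers are not shown to pair the arrays: deviations from the group means of Canton-S and Act88FKM88 correlated at -0.01, -0.01 and 0.16. The remaining settings gave counts within 1.5 times of the main ones. No called gene that is named turned its sign under the limma settings, but genes not called did, among them RyR (0.14 and, on the repeated scale, -0.32), SERCA (0.04 and -0.46), PMCA (0.21 and -0.27) and up (0.14 and -0.17). Of the 87 called genes named, 53 kept their call whichever array was left out, 56 kept it with quantile normalization repeated and 57 with loess. Of 30 gene lists without a call, 10 gained 1 to 3 calls when an array was left out. Of all 67 lists, 13 with a median beyond 0.1 turned the sign of that median on the repeated scale. The causes were not tested. Depth cannot be given for arrays; values under a log2 level of 4, the low side of 57 rises and 16 falls, lie near background and can understate a difference.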
